A study of Mus musculus with 9 samples.

Results

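The 10 Slc30a genes encode the SLC30 family of zinc transporters (ZnT proteins), and they are described here in beta-, alpha- and delta-enriched cells sorted from mouse islets. The members are Slc30a1 to Slc30a10, taken by symbol from the GRCm38 annotation, and they make up 10 of the 55536 genes in each deposited table. All 10 were found, 7 passed the filter on low counts and were tested, 1 had a few counts and 2 had none. The 9 libraries came from C57B/L6 mice aged 12 weeks, with 3 libraries per subset and the same culture for all. The beta-enriched subset was sorted as CD24low CD71+, the alpha-enriched subset as CD24low CD71-, and the delta-enriched subset as CD24high, so each is an enrichment by 2 surface markers and not a pure cell type. Islets were picked by hand, cultured overnight and dispersed before sorting, per the labels' protocols.

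Most SLC30 proteins move zinc out of the cytosol, either across the plasma membrane or into organelles, while the SLC39 (ZIP) family brings zinc into the cytosol. In islets the family is best known for Slc30a8 (ZnT8), which loads zinc into insulin granules, where zinc and insulin form crystals. Cells hold free zinc in check with metallothioneins, and the transcription factor encoded by Mtf1 switches on metallothionein genes and Slc30a1 when zinc rises.

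Library totals ran from 5663141 to 9529920 expected counts. The sort labels matched the hormone transcripts. Ins2 stood at 21226 to 28401 CPM in beta libraries, against 2027 to 2772 CPM in alpha and 65.3 to 390 CPM in delta libraries. Gcg was at 300.2 to 550 CPM in beta, 78112 to 96574 CPM in alpha and 1930 to 6003 CPM in delta libraries. Sst was at 1.03 to 2.31 CPM in beta, 18.9 to 73.4 CPM in alpha and 14396 to 20737 CPM in delta libraries. The PP cell markers Ppy and Pyy summed to 62.4 to 90.4 CPM in beta, 2733 to 3820 CPM in alpha and 4358 to 6276 CPM in delta libraries. A ribosomal RNA locus held 34.4% of the counts of beta replicate 2 and 3.15% to 5.37% of those of the other libraries. The 12 acinar cell markers summed to 2296 CPM in delta replicate 3, against 155 and 92.7 CPM in the other delta libraries. Levels are TMM-scaled CPM, counts scaled to a common library size, given for replicates 1, 2 and 3 of a subset in that order. Nothing in the labels says that replicates came from separate animals, so p-values measure the spread between these libraries, which may be technical. In such bulk libraries, fewer cells of a type and less RNA per cell cannot be told apart.

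Slc30a8 dominated the family in beta and alpha libraries and was about an order of magnitude scarcer in delta libraries. The gene lies at chr15:52295553-52335798 on the plus strand (GRCm38). It measured 734, 659 and 605 CPM in beta libraries, 972, 874 and 855 CPM in alpha libraries, and 54.2, 27.7 and 53.2 CPM in delta libraries. All 6 beta and alpha libraries lay far above all 3 delta libraries, and delta replicate 2 was the lowest. Its mean was 666 ± 64.8 CPM in beta, 900.3 ± 62.9 CPM in alpha and 45.0 ± 15.0 CPM in delta libraries (SD, n = 3 each). The beta minus delta log2 fold change was 3.88 (SE 0.23, 14.7-fold, adjusted p = 1.19e-06), and the alpha minus delta log2 fold change was 4.32 (SE 0.24, 19.9-fold, adjusted p = 8.66e-07). Here and below, adjusted p-values are from edgeR's quasi-likelihood test with Benjamini-Hochberg adjustment over 15896 genes. Both calls were kept under all 21 alternative settings tried.

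Beta libraries had less Slc30a8 than alpha libraries without overlap, but the difference missed the threshold. Of all tested genes, 45.5% did not overlap between beta and alpha libraries. The beta minus alpha log2 fold change was -0.43 (SE 0.21, 95% interval -0.90 to 0.03, adjusted p = 0.168). Leaving out delta replicate 2, which lies in neither subset, took it past the threshold (-0.43, adjusted p = 0.00116), as did fitting the beta and alpha libraries alone (-0.45, adjusted p = 0.000407) and dropping the filter on low counts (-0.44, adjusted p = 0.0157). The 9 beta cell markers summed to 51990 to 63067 CPM in beta, 4420 to 6458 CPM in alpha and 6013 to 7279 CPM in delta libraries. Iapp supplied most of the delta sum, at 5664 to 6987 CPM, and Iapp and Glp1r were higher in delta than in alpha libraries. The markers Ins1, Ins2, Mafa, Nkx6-1, Ucn3, Slc2a2 and G6pc2 were each lower in delta than in alpha libraries. Of these, Mafa (adjusted p = 0.0542) and Ucn3 (adjusted p = 0.0944) were not called. The part of beta cell RNA in the alpha level of Slc30a8 was not tested.

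Among the delta libraries Slc30a8 was lowest in replicate 2, as were some markers of alpha and beta cells. The 9 alpha cell markers summed to 939 to 1184 CPM in beta, 84012 to 103689 CPM in alpha and 2725 to 7007 CPM in delta libraries, and none was at 0 in every library. Slc30a8 in delta replicates 1, 2 and 3 was 6.02%, 3.07% and 5.91% of its alpha mean. Gcg was 6.71%, 2.16% and 5.83% of its alpha mean in the same libraries. Ttr, which encodes the hormone carrier transthyretin and is abundant in alpha cells, was at 6.21%, 2.59% and 6.08%. Delta replicate 2 was thus the lowest for Slc30a8, Gcg and Ttr. Slc7a2, at 7.74%, 4.90% and 7.86%, and Irx2, at 8.35%, 6.57% and 8.89%, were also lowest there, while Irx1 was lowest in replicate 3. In all, 6 of the 9 alpha cell markers were lowest in delta replicate 2. So were 3 of the 9 beta cell markers, Iapp, Nkx6-1 and G6pc2. Relative to its own beta mean, Iapp was at 42.3%, 34.3% and 36.0%, Nkx6-1 at 5.8%, 4.3% and 8.1%, and G6pc2 at 1.20%, 0.14% and 1.73%. Of the other tested members, Slc30a1, Slc30a4, Slc30a6 and Slc30a7 were also lowest in delta replicate 2, and Slc30a5 and Slc30a9 were not. The share of all genes lowest in that library was not counted. Gria3, at 31.4% to 42.1%, and Etv1, at 58.0% to 67.6%, were much higher relative to alpha. The part of alpha or beta cell RNA in the delta level of Slc30a8 was not tested.

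**Figure D1:**
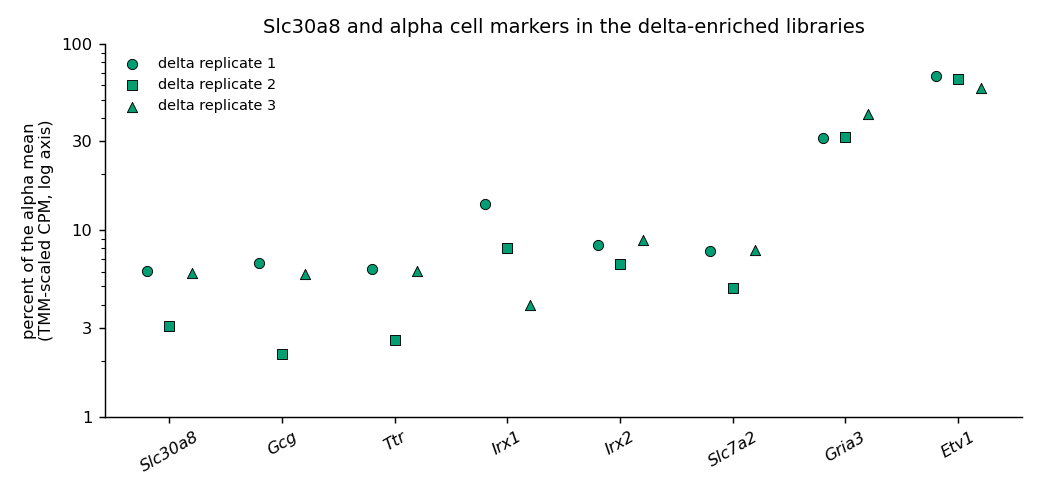
Slc30a8 and alpha cell markers in the 3 delta-enriched libraries, each as a percent of the gene's mean in alpha-enriched libraries (TMM-scaled CPM, log axis), 1 symbol per library. Slc30a8 at 3.07% to 6.02% sits beside Gcg and Ttr, with replicate 2 lowest in each, while Gria3 and Etv1 sit higher.

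Per length, on the deposited TPM scale, Slc30a8 measured 202, 154 and 219 TPM in beta libraries, 259, 239 and 316 TPM in alpha libraries, and 11.1, 7.56 and 15.4 TPM in delta libraries. It ranked between 51 and 70 among protein-coding genes in beta libraries and between 44 and 48 in alpha libraries, but between 2341 and 4637 in delta libraries. The 10 genes together summed to 216 to 299 TPM in beta, 293 to 390 TPM in alpha and 52.5 to 85.1 TPM in delta libraries. Without Slc30a8 the sums were 62.8 to 80.6 TPM in beta, 54.6 to 74.3 TPM in alpha and 45.0 to 69.7 TPM in delta libraries, and these ranges overlapped. TPM was not rescaled between libraries, so these levels and sums also carry library scaling. RSEM's effective length for Slc30a8 varied little, from 1723 to 1778 bases. Even so, alpha replicate 3 was the lowest alpha library for the gene in CPM and the highest in TPM.

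The make-up of the family differed accordingly. Slc30a8 supplied 72.7% ± 1.51 of the family's summed TPM in beta, 81.2% ± 0.23 in alpha and 17.0% ± 2.24 in delta libraries (SD, n = 3 each). Its share was 8.55 percentage points lower in beta than in alpha libraries, 55.7 points higher in beta than in delta, and 64.2 points higher in alpha than in delta. No pair of subsets overlapped in this share. An exact 2-sided permutation test gave p = 0.1 for each difference, the smallest value 3 libraries against 3 can give. In delta libraries Slc30a9 supplied 19.2% to 31.0%, Slc30a5 16.7% to 31.1% and Slc30a7 8.16% to 22.3% of the family's TPM, so no member was dominant there.

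**Figure D2:**
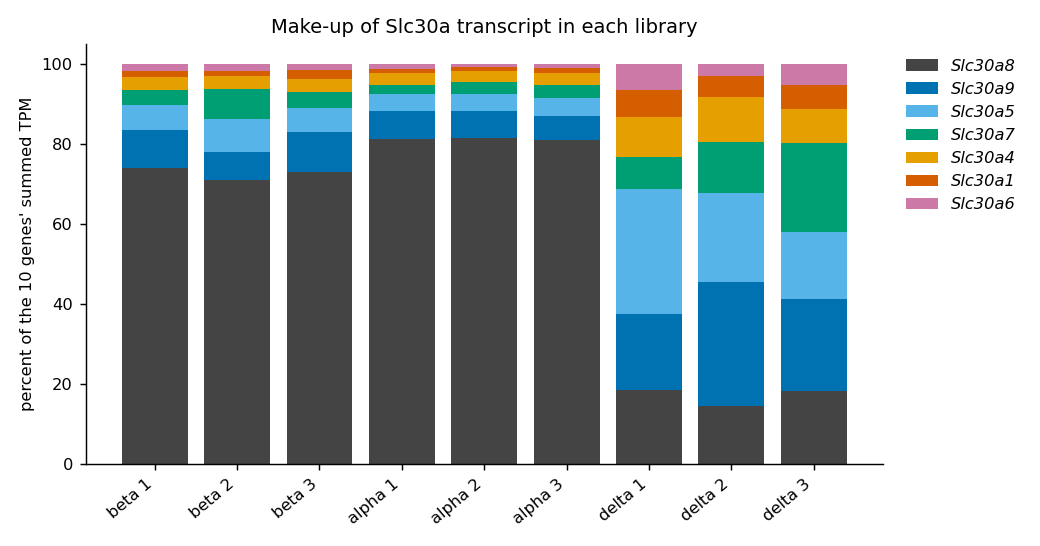
Share of each Slc30a gene in the family's summed TPM (percent), 1 bar per library, beta, alpha and delta from left to right; Slc30a10, at under 0.1%, and the 2 genes at 0 are not drawn. Slc30a8 fills 71.0% to 73.9% of the beta bars, 81.0% to 81.4% of the alpha bars and 14.4% to 18.4% of the delta bars.

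Across the family, 2 of the 7 tested members were higher in beta than in alpha libraries (Slc30a5 and Slc30a7) and none was lower, while 26.6% of all tested genes differed. In beta against delta libraries 2 were higher (Slc30a7 and Slc30a8) and none lower, with 30.6% of all genes called. In alpha against delta libraries 1 was higher (Slc30a8) and none lower, with 24.3% of all genes called. These shares of members are near or below the background. The median log2 fold change of the tested members was 0.34, 0.23 and -0.00 in the beta minus alpha, beta minus delta and alpha minus delta comparisons, beside -0.02, -0.02 and -0.01 over all tested genes. The comparisons share libraries and are not independent. With beta replicate 2 and delta replicate 3 both left out, Slc30a7 kept its calls over alpha (log2 fold change 0.52, adjusted p = 0.0116) and over delta (0.83, adjusted p = 0.001), Slc30a8 kept both of its calls (4.01 and 4.45), and Slc30a5 lost its call (0.35, adjusted p = 0.132).

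**Figure D3:**
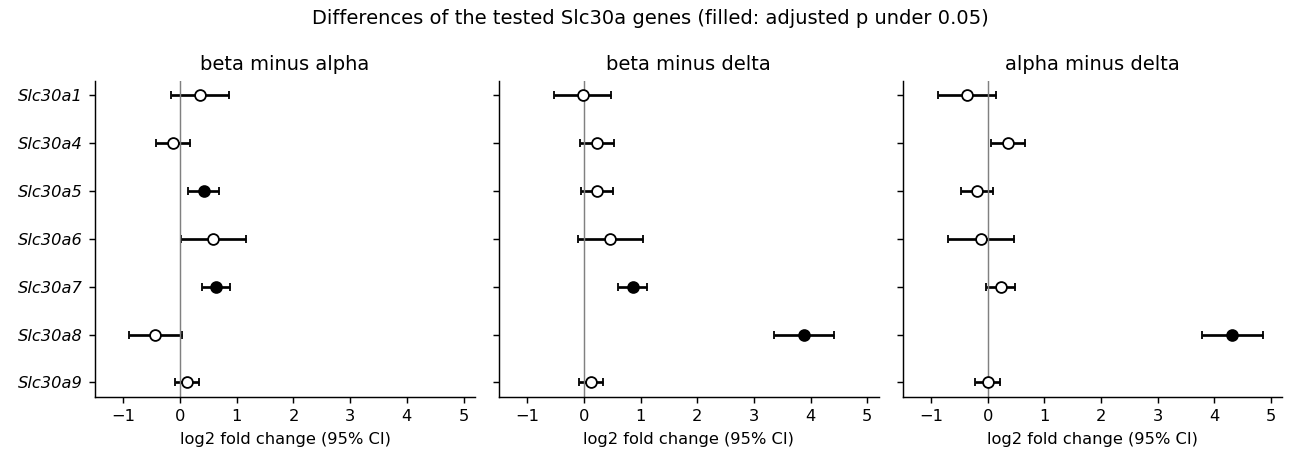
Log2 fold change of the 7 tested Slc30a genes in each comparison, with 95% intervals; filled points passed an adjusted p of 0.05 in edgeR. Slc30a8 at 3.88 and 4.32 stands far right in both comparisons with delta, and the other points lie within 1 of 0.

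Slc30a5, Slc30a6 and Slc30a7 act in the early secretory pathway, where ZnT5 and ZnT6 work as a heterodimer and, beside ZnT7, supply zinc to secreted and membrane enzymes such as alkaline phosphatases. Slc30a7 (chr3:115938973-116007406, minus strand) was highest in beta libraries. It measured 168, 192 and 148 CPM in beta, 109, 105 and 113 CPM in alpha, and 97.8, 77.7 and 104 CPM in delta libraries. The 3 subsets did not overlap, although the lowest alpha and the highest delta library nearly touched. Of all tested genes, 36.1% did not overlap between alpha and delta libraries. The beta minus alpha log2 fold change was 0.63 (SE 0.12, 1.55-fold, adjusted p = 0.000657) and the beta minus delta log2 fold change was 0.86 (SE 0.12, 1.82-fold, adjusted p = 2.85e-05). Alpha and delta libraries were not called different (0.23, SE 0.12, adjusted p = 0.198).

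The Slc30a7 calls rest on counts that are not corrected for transcript length. RSEM's effective length for the gene, which follows the mix of isoforms it assigned, ran from 2779 bases in delta replicate 3 to 7845 bases in beta replicate 1. With effective-length offsets the beta minus alpha log2 fold change was 0.60 (adjusted p = 0.418) and the beta minus delta one 0.34 (adjusted p = 0.633). In TPM, Slc30a7 measured 10.4, 16.3 and 12.1 in beta, 7.11, 8.28 and 13.1 in alpha, and 4.92, 6.68 and 18.9 in delta libraries, and on this scale the subsets overlapped.

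Slc30a5 (chr13:100802648-100833427, minus strand) measured 94.4, 102 and 86.8 CPM in beta, 76.9, 61.3 and 73.2 CPM in alpha, and 95.2, 74.5 and 70.7 CPM in delta libraries. Beta lay above alpha without overlap, and delta overlapped both. The beta minus alpha log2 fold change was 0.42 (SE 0.13, 1.34-fold, adjusted p = 0.0238). That call was lost when beta replicate 1 (adjusted p = 0.0667), beta replicate 2 (adjusted p = 0.13), alpha replicate 2 (adjusted p = 0.137) or alpha replicate 3 (adjusted p = 0.051) was left out. It was also lost with upper-quartile factors (adjusted p = 0.0688) and with effective-length offsets (adjusted p = 0.33). The beta minus delta log2 fold change of 0.23 (SE 0.13, adjusted p = 0.197) passed the threshold without delta replicate 1 (0.38, adjusted p = 0.0233). The alpha minus delta log2 fold change was -0.18 (adjusted p = 0.347).

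Slc30a6 (chr17:74395608-74424221, plus strand), the partner of Slc30a5, had the fewest counts of the tested members. It measured 11.3, 10.8 and 9.90 CPM in beta, 8.20, 7.56 and 5.50 CPM in alpha, and 7.37, 6.50 and 9.25 CPM in delta libraries. In CPM all beta libraries lay above all others, a separation that 45.5% of tested genes showed between beta and alpha and 42.6% between beta and delta. Neither difference was called, at log2 fold changes of 0.59 (SE 0.27, adjusted p = 0.133) and 0.47 (SE 0.27, adjusted p = 0.221). The 95% intervals, 0.01 to 1.16 and -0.11 to 1.04, reach a doubling. With effective-length offsets these differences were 0.43 (adjusted p = 0.535) and 0.18 (adjusted p = 0.79). In TPM the gene measured 4.49, 3.76 and 4.21 in beta, 3.78, 2.34 and 3.61 in alpha, and 3.87, 1.63 and 4.47 in delta libraries, and on this scale beta overlapped both. Alpha and delta libraries overlapped (-0.12, adjusted p = 0.802).

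Slc30a4 (chr2:122681233-122702663, minus strand) encodes ZnT4, a transporter of endosomes and secretory vesicles whose loss makes mouse milk poor in zinc. It measured 91.4, 89.5 and 76.6 CPM in beta, 104, 87.0 and 89.2 CPM in alpha, and 86.7, 56.7 and 75.7 CPM in delta libraries. Beta overlapped both other subsets, and the lowest alpha library was barely above the highest delta library, a separation of alpha from delta that 36.1% of tested genes showed. No comparison was called, at log2 fold changes of -0.12 for beta minus alpha (adjusted p = 0.601), 0.23 for beta minus delta (adjusted p = 0.243) and 0.35 for alpha minus delta (adjusted p = 0.0786). Without delta replicate 1 the beta minus delta difference (adjusted p = 0.0424) and the alpha minus delta difference (0.59, adjusted p = 0.0107) passed.

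Slc30a9 (chr5:67306955-67358443, plus strand), which encodes the mitochondrial zinc transporter ZnT9, varied little in CPM. It measured 117, 112 and 122 CPM in beta, 111, 104 and 107 CPM in alpha, and 95.3, 116 and 111 CPM in delta libraries. Beta lay just above alpha, a separation that 45.5% of tested genes showed, and delta overlapped both. The log2 fold changes were 0.12 for beta minus alpha (95% interval -0.09 to 0.34, adjusted p = 0.432), 0.12 for beta minus delta (-0.09 to 0.34, adjusted p = 0.398) and -0.00 for alpha minus delta (-0.21 to 0.21, adjusted p = 0.998). With effective-length offsets these log2 fold changes were 0.13 (adjusted p = 0.658), 0.43 (adjusted p = 0.0627) and 0.30 (adjusted p = 0.216). In TPM the gene averaged 23.7 ± 7.64 in beta, 22.0 ± 1.88 in alpha and 15.8 ± 4.04 in delta libraries (SD, n = 3 each), with all alpha libraries above all delta libraries and beta overlapping both.

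Slc30a1 (chr1:191906767-191913247, plus strand) encodes ZnT1, the exporter of the plasma membrane and a known target of the zinc sensor Mtf1. It measured 47.3, 31.5 and 55.5 CPM in beta, 35.3, 31.2 and 39.4 CPM in alpha, and 56.9, 29.0 and 50.2 CPM in delta libraries. The subsets overlapped in every comparison, and replicate 2 was the lowest in each. No difference was called, at log2 fold changes of 0.34 for beta minus alpha (SE 0.24, adjusted p = 0.343), -0.02 for beta minus delta (SE 0.24, adjusted p = 0.959) and -0.37 for alpha minus delta (SE 0.24, adjusted p = 0.305). Without delta replicate 2 the alpha minus delta difference passed (-0.60, adjusted p = 0.0327).

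Slc30a10 (chr1:185454848-185468762, plus strand), an exporter of the plasma membrane best known for manganese, was near the limit of detection. It had 4 counts in all beta libraries, 19 in all alpha libraries and 1 in all delta libraries, and was not tested. Its level was 0, 0.17 and 0.50 CPM in beta, 0.91, 0.76 and 0.71 CPM in alpha, and 0, 0 and 0.13 CPM in delta libraries. All alpha libraries lay above all others. Of the tested genes, 45.5% did not overlap between beta and alpha libraries and 36.1% did not between alpha and delta. The ratio was 0.255 for beta to alpha (95% exact counting interval 0.063 to 0.766), 4.41 for beta to delta (0.437 to 217) and 17.3 for alpha to delta (2.76 to 720), intervals that cover counting error only.

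Slc30a2 (chr4:134343181-134354484, plus strand), known from vesicles of mammary and other secretory cells, and Slc30a3 (chr5:31086106-31108237, minus strand), which loads synaptic vesicles of neurons, had 0 counts in all 9 libraries. A count of 0 allows up to 0.152 CPM over the beta, 0.126 CPM over the alpha and 0.138 CPM over the delta libraries. Slc30a1, Slc30a3, Slc30a4, Slc30a7 and Slc30a10 overlap an annotated gene on the opposite strand, and the sources used here do not say whether counting used strand; if it did not, reads of such a pair cannot be told apart.

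**Figure D4:**
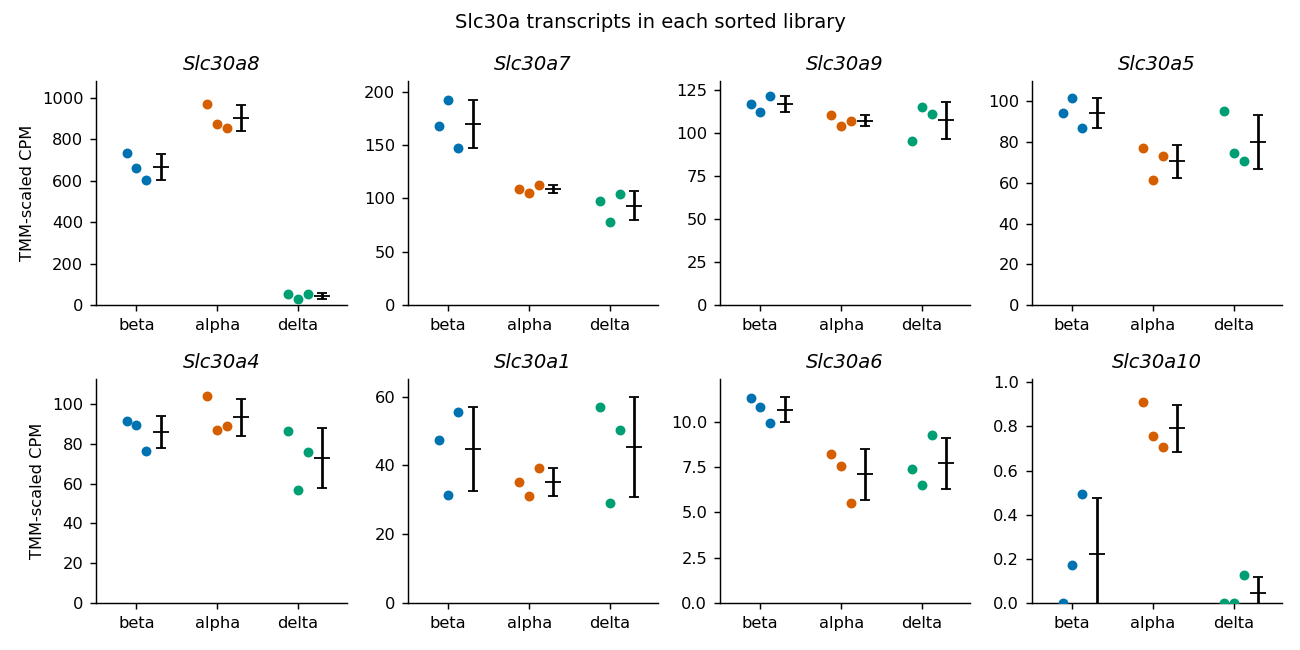
TMM-scaled CPM of the 8 Slc30a genes with any count, 1 point per library (3 each for beta, alpha and delta from left to right), with mean and SD at the right of each group; each panel has its own axis from 0, and bars of Slc30a10 that pass below 0 are cut there. Slc30a8 separates delta from both other subsets, Slc30a7 is highest in beta, and Slc30a1 and Slc30a4 overlap between beta and the other subsets.

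Mt1 and Mt2 encode the main metallothioneins, which bind and buffer zinc, and both were highest in beta libraries. The 250 bases before their start sites are shown beside those of Slc30a1, since all are known targets of Mtf1 and their transcripts can be set side by side here. Capitals mark the core of the metal response element, searched as TGCACNC or TGCGCNC on both strands. Sequences are from RefSeq on GRCm38.p6, all on the plus strand, at chr1:191906531-191906780 for Slc30a1, chr8:94178839-94179088 for Mt1 and chr8:94172368-94172617 for Mt2.
Slc30a1: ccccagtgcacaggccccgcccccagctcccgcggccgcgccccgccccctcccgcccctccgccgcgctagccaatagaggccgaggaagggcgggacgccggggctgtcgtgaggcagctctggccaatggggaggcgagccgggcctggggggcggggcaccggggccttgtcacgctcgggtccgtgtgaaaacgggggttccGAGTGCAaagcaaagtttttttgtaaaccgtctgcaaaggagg
Mt1: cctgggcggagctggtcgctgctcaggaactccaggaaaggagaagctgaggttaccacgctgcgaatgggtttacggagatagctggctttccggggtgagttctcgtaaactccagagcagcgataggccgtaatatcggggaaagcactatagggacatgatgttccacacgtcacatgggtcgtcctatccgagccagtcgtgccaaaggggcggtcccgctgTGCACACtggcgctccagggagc
Mt2: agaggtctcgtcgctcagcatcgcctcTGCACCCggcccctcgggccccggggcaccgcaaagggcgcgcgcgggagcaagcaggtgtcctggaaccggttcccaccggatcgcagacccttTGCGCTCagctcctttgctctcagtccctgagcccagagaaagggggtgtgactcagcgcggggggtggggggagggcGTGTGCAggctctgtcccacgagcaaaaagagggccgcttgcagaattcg

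Of the 10 members, 9 had a window of 250 bases before to 50 after the start, and 6 held at least 1 match to the core in it, as did 25.7% of all 32851 windows. With the 50 bases after the start included, Slc30a1 held 2 matches, Mt1 held 3 and Mt2 held 4, and 7.11% of all windows held at least 2. Matches that begin after the start, at base 31 for Slc30a1, 3 and 21 for Mt1 and 5 for Mt2, lie outside the bases shown. Slc30a4 and Slc30a10 held 3 each, with 2 of those of Slc30a10 overlapping on opposite strands, Slc30a2 held 2, and Slc30a3 and Slc30a5 held 1. The windows of Slc30a6, Slc30a7 and Slc30a9 held no such letters. A match is a description of the letters only.

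Mt1 measured 238, 264 and 521 CPM in beta, 78.0, 86.5 and 148 CPM in alpha, and 83.6, 85.0 and 132 CPM in delta libraries. Every beta library lay above every other library, and replicate 3 was the highest in each subset. The log2 fold change was 1.71 for beta minus alpha (SE 0.42, adjusted p = 0.0265), 1.77 for beta minus delta (SE 0.42, adjusted p = 0.0211) and 0.05 for alpha minus delta (SE 0.42, adjusted p = 0.946). The first call was lost without alpha replicate 1 (adjusted p = 0.0872) or alpha replicate 2 (adjusted p = 0.0929), and the second without delta replicate 1 (adjusted p = 0.0688) or delta replicate 2 (adjusted p = 0.0714). The first was also lost in the fit of beta and alpha libraries alone (adjusted p = 0.0595) and without the filter on low counts (adjusted p = 0.0511). Both calls were lost with limma on log2(TPM + 1) (adjusted p = 0.237 and 0.114) and on log2(TPM + 0.1) (adjusted p = 0.236 and 0.112). Both were also lost when the log2 fold change had to exceed 1 (adjusted p = 0.255 and 0.196).

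Mt2 measured 87.7, 104 and 166 CPM in beta, 28.6, 30.7 and 50.5 CPM in alpha, and 15.0, 14.2 and 25.8 CPM in delta libraries. The 3 subsets did not overlap, a separation that 36.1% of tested genes showed between alpha and delta. The log2 fold change was 1.70 for beta minus alpha (SE 0.35, adjusted p = 0.00733) and 2.69 for beta minus delta (SE 0.37, adjusted p = 0.000713), and 0.98 for alpha minus delta (SE 0.36, adjusted p = 0.0914). The last passed under 6 of 21 alternative settings. It passed without beta replicate 3 (adjusted p = 0.0163) or delta replicate 3 (adjusted p = 0.0255). Leaving out both beta replicate 2 and delta replicate 3 also took it past the threshold (adjusted p = 0.0244). So did DESeq2 (adjusted p = 0.0411), the fit of alpha and delta libraries alone (adjusted p = 0.0181) and a block for replicate number (adjusted p = 6.39e-06). The beta minus alpha call of Mt2 was lost with limma on log2(TPM + 1) or log2(TPM + 0.1) (adjusted p = 0.153 for each). It was also lost when the log2 fold change had to exceed 1 (adjusted p = 0.123). Of the 5 genes in the list of metallothioneins and zinc sensor, 3 were tested: 2 were higher in beta than in alpha, 3 were higher in beta than in delta and none was called between alpha and delta, beside 14.8% of all tested genes higher in beta than in alpha and 15.4% higher in beta than in delta. Mtf1 itself was higher in beta than in delta libraries (log2 fold change 0.54, SE 0.14, adjusted p = 0.00683), with 53.5 to 58.8 CPM in beta and 33.3 to 41.4 CPM in delta. That call was kept when any 1 library was left out. It was lost with limma on log2(TPM + 1) (adjusted p = 0.0787) or log2(TPM + 0.1) (adjusted p = 0.0758). Leaving out both beta replicate 2 and delta replicate 3 (adjusted p = 0.0611) or requiring a log2 fold change above 1 also ended it. Mt4 had 0 counts in every library. Slc30a1, whose promoter stands beside theirs above, was not called in any comparison.

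Tmem163, which encodes a vesicular zinc transporter outside the SLC30 family, was graded across the subsets. It measured 41.0, 44.6 and 40.4 CPM in beta, 14.7, 18.5 and 13.1 CPM in alpha, and 4.64, 2.57 and 1.28 CPM in delta libraries. The 3 subsets did not overlap. The log2 fold change was 1.44 for beta minus alpha (SE 0.25, adjusted p = 0.000313), 3.89 for beta minus delta (SE 0.30, adjusted p = 2.87e-08) and 2.45 for alpha minus delta (SE 0.30, adjusted p = 1.07e-05). Its level in beta libraries thus exceeded that in alpha libraries, while Slc30a8 was not called between them and was the lower in beta.

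Of the 14 SLC39 zinc importers, 10 were tested, and Slc39a12 had 0 counts in every library. Between beta and alpha libraries 3 were higher in beta and 3 lower, beside 14.8% of all tested genes higher and 11.9% lower. Between beta and delta libraries 3 were higher in beta and 2 lower, beside 15.4% and 15.3%. Between alpha and delta libraries 2 were higher in alpha and 1 lower, beside 11.0% and 13.3%. The median log2 fold change of the tested importers was 0.02, 0.04 and 0.01 in these 3 comparisons.

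Slc39a7 and Slc39a9, which act in the secretory pathway, were higher in beta libraries than in both other subsets. Slc39a7 (ZIP7), which releases zinc from the endoplasmic reticulum, measured 99.3, 125 and 110 CPM in beta, 77.6, 90.4 and 72.2 CPM in alpha, and 76.9, 75.5 and 72.9 CPM in delta libraries. In CPM all beta libraries of Slc39a7 lay above the others, with log2 fold changes of 0.47 over alpha (SE 0.12, adjusted p = 0.00526) and 0.57 over delta (SE 0.12, adjusted p = 0.00113). In TPM beta overlapped both, at 29.9 to 58.6 against 23.9 to 35.1 in alpha and 15.5 to 32.2 in delta libraries. The call against alpha was lost without beta replicate 2 (adjusted p = 0.0521). Both Slc39a7 calls were lost with limma on log2(TPM + 1) (adjusted p = 0.355 and 0.103). Slc39a9 (ZIP9), an importer of the Golgi region, averaged 121 ± 10.7 CPM in beta, 91.1 ± 11.9 CPM in alpha and 88.0 ± 9.80 CPM in delta libraries (SD, n = 3 each). Its log2 fold changes were 0.40 over alpha (adjusted p = 0.0191) and 0.46 over delta (adjusted p = 0.00796). The first was lost without beta replicate 2 (adjusted p = 0.123), alpha replicate 2 (adjusted p = 0.113) or alpha replicate 3 (adjusted p = 0.0601), and the second without beta replicate 2 (adjusted p = 0.0591). Both Slc39a9 calls were lost with limma on log2(TPM + 1) (adjusted p = 0.757 and 0.19).

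Slc39a6, Slc39a1 and Slc39a14 encode importers of the plasma membrane, and each was called in 1 or 2 comparisons. Slc39a6 (ZIP6) measured 45.5 to 51.3 CPM in beta and 31.5 to 37.8 CPM in delta libraries, a log2 fold change of 0.50 (SE 0.13, adjusted p = 0.00794). Slc39a1 (ZIP1) was at 25.2 to 31.9 CPM in beta and 19.3 to 21.7 CPM in alpha libraries, a log2 fold change of 0.48 (SE 0.16, adjusted p = 0.0354). Leaving out beta replicate 2 or 3 or any alpha library ended that call (adjusted p from 0.0573 to 0.189). Slc39a14 (ZIP14), which also carries iron, was lower in beta than in alpha libraries (log2 fold change -0.66, SE 0.21, adjusted p = 0.0307) and higher in alpha than in delta libraries (0.65, SE 0.21, adjusted p = 0.0332). Its levels were 17.7 to 24.3 CPM in beta, 32.5 to 36.4 CPM in alpha and 14.4 to 28.7 CPM in delta libraries. The first call was lost when any beta or alpha library was left out (adjusted p from 0.053 to 0.154), and the second without any alpha library, delta replicate 2 or delta replicate 3 (adjusted p from 0.0501 to 0.118).

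Slc39a11 (ZIP11) was highest in alpha libraries. It measured 6.55, 7.20 and 6.93 CPM in beta, 27.8, 24.4 and 23.4 CPM in alpha, and 10.2, 16.5 and 15.9 CPM in delta libraries. The 3 subsets did not overlap. The log2 fold change was -1.87 for beta minus alpha (SE 0.23, adjusted p = 5.65e-06), -1.04 for beta minus delta (SE 0.23, adjusted p = 0.00184) and 0.83 for alpha minus delta (SE 0.21, adjusted p = 0.00779). Slc39a8 (ZIP8), a carrier of zinc and manganese that was below the level set for naming and was picked after its values were seen, was highest in delta libraries. It measured 0.26, 0.17 and 0.33 CPM in beta, 0.80, 3.27 and 2.26 CPM in alpha, and 7.10, 6.65 and 7.97 CPM in delta libraries. Its log2 fold changes were -2.96 for beta minus alpha (SE 0.67, adjusted p = 0.00283), -4.74 for beta minus delta (SE 0.64, adjusted p = 1.86e-05) and -1.78 for alpha minus delta (SE 0.49, adjusted p = 0.0129, or 0.0557 without alpha replicate 1). With effective-length offsets 6 importer calls were lost: Slc39a1, Slc39a9 and Slc39a14 in beta minus alpha, Slc39a6 in beta minus delta, and Slc39a11 and Slc39a14 in alpha minus delta (adjusted p from 0.054 to 0.755).

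**Figure D5:**
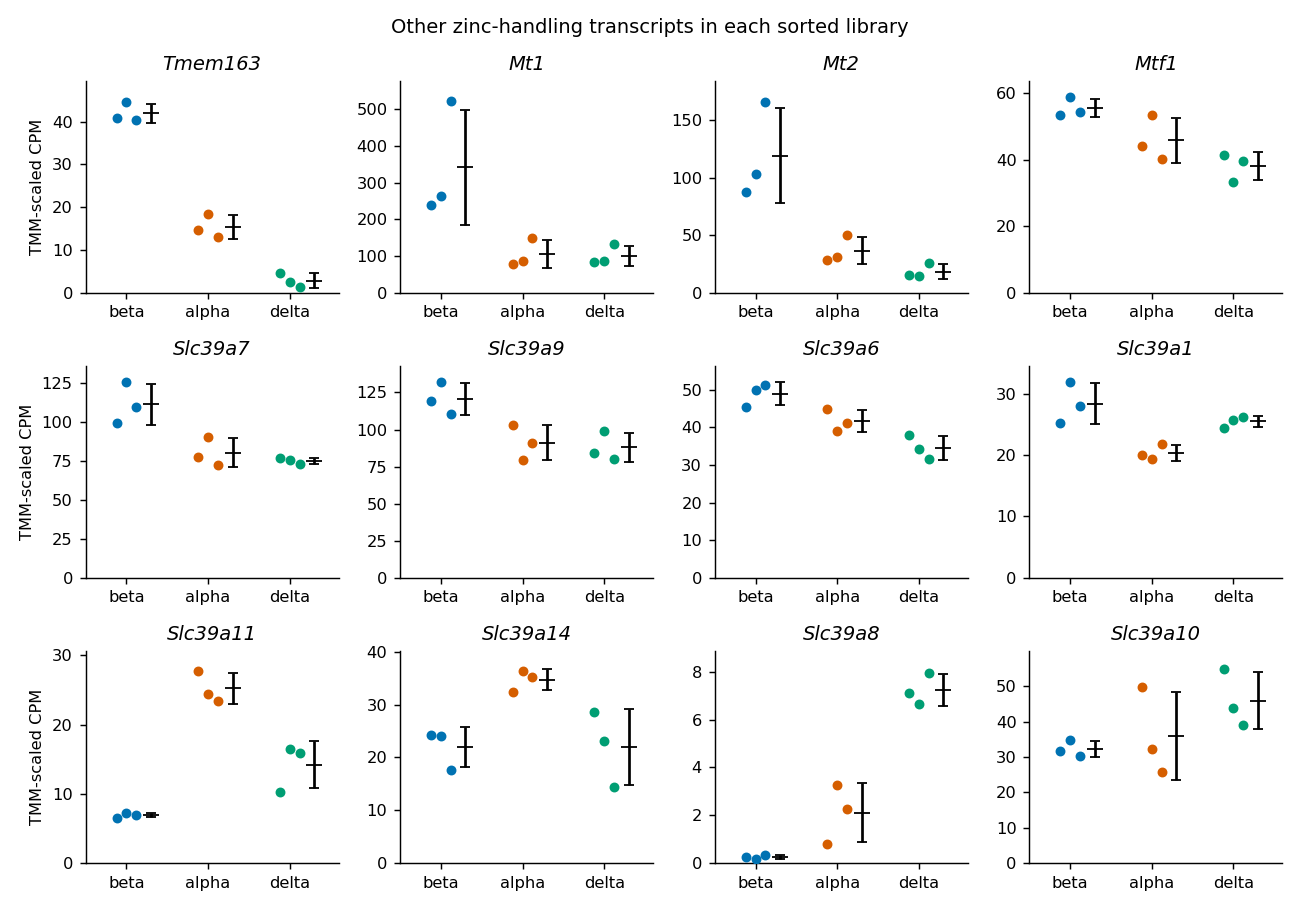
TMM-scaled CPM of 12 other zinc-handling genes, 1 point per library (3 each for beta, alpha and delta from left to right), with mean and SD at the right of each group and axes from 0. Tmem163, Mt1 and Mt2 are highest in beta, Slc39a11 is highest in alpha, and Slc39a8 is highest in delta. Slc39a10 was not called in any comparison of the main test.

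The protein-coding genes whose pattern was most like that of Slc30a8 were found by the root-mean-square difference of centred log2 CPM over the 9 libraries. The 6 closest were Pmp22 at 0.36, Csmd2 at 0.37, Kcnh6 at 0.40, Cadps at 0.40, Kctd12b at 0.46 and Lpl at 0.52. Cadps, which encodes an activator of calcium-dependent granule exocytosis, measured 378, 337 and 357 CPM in beta, 299, 314 and 318 CPM in alpha, and 22.0, 22.4 and 27.0 CPM in delta libraries. Kcnh6, a voltage-gated potassium channel, measured 66.1, 66.1 and 67.5 CPM in beta, 94.6, 103 and 97.8 CPM in alpha, and 2.46, 3.33 and 5.91 CPM in delta libraries. Both were scarce in every delta library, which follows from how they were picked. Unlike Slc30a8, Cadps was higher in beta than in alpha libraries (log2 fold change 0.20), a difference that was not called (adjusted p = 0.127). Pmp22, the closest by this measure, did not exceed 3.90 CPM in any library, so its place rests on few counts.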

How the data were processed

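Total RNA from sorted islet cells was made into strand-specific libraries from random primers and sequenced as read pairs, per the labels' protocols. The deposited RSEM tables, 1 for each library, hold expected counts, TPM and effective lengths in bases, per the file headers. The build GRCm38.p6, DESeq2 1.22.1, R 3.5.1, RSEM and STAR 2.5.2b are named in the submitters' processing notes. RSEM shares reads among genes and isoforms, so that 6.94% to 8.66% of a library's genes held non-whole values. All 55536 identifiers matched the GENCODE M21 annotation of GRCm38.

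Expected counts were rounded, filtered with filterByExpr (15896 genes kept), scaled by TMM and fitted with edgeR 4.0.16 under R 4.3.3 (robust quasi-likelihood, 1 coefficient per subset, all 9 libraries). Each of the 3 differences had a 2-sided test, adjusted by Benjamini-Hochberg, with a threshold of 0.05. TPM, which corrects for effective length, served for levels between genes, for shares and sums of the family and, as an alternative scale, between subsets. The deposited TPM was not rescaled between libraries. Differences in TPM between libraries, and tests on TPM, thus mix library scaling with the correction for length. Alternatives used limma 3.58.1 and DESeq2 1.42.0. Intervals and limits from counts use 95% and a floor of 3 counts and cover counting error only.

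The members, gene lists and tests were chosen with earlier results of these data known. Named were all members; genes of the zinc lists past the test in at least 1 comparison with a mean of 10 CPM or more in the highest subset, or at 0 in every library; the 6 genes most like Slc30a8; and markers moving with a member. Some marker genes that the rule took are not named and their own values are not reported here.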

Additional observations from a re-analysis of the deposited data

How the results depend on the processing

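The 5 calls among Slc30a members were tried under 21 alternative settings, and none reversed. All 5 were kept with DESeq2, with DESeq2 size factors, without the low-count filter, at 10 CPM or more in 3 libraries and in fits of the compared subsets alone, the last chosen after seeing the data. Both Slc30a8 calls against delta were kept in all. For beta minus alpha the count of members called was 1 with upper-quartile factors, 1 with beta replicate 2 and delta replicate 3 both left out, and 0 with effective-length offsets, with log2(TPM + 1), with log2(TPM + 0.1) and when the fitted log2 fold change had to exceed 1. For beta minus delta it was 1 under each of the last 4 settings. For alpha minus delta it was 2 without the low-count filter. Leaving out 1 library at a time gave 1 to 3, 2 to 4 and 1 to 2 members called in the 3 comparisons. Over all genes, log2(TPM + 1) gave 1765, 2446 and 1807 calls, log2(TPM + 0.1) gave 1819, 2480 and 1782, and requiring a log2 fold change above 1 gave 1211, 1468 and 1039, against 4231, 4869 and 3868 in the main test. The cause was not tested.

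Nothing in the labels says that replicate numbers pair the libraries, so they were not taken as pairs. Deviations of same-numbered libraries correlated at no more than 0.0965, a value over all genes that cannot decide whether the libraries are paired. As a hint from the data, a library correlated best with its own number in 16 of 18 cases, beta replicate 2 and delta replicate 2 against each other being the exceptions. A replicate block gave 4625, 5241 and 4294 calls over all genes. It gave 2 members called for alpha minus delta, Slc30a4 being added (0.36, adjusted p = 0.029), and kept the other member calls. Among other zinc genes it added Mt2 for alpha minus delta (adjusted p = 6.39e-06) and Slc39a10 for beta minus delta (adjusted p = 0.0267). Of the 22 calls among other zinc genes, 16 were kept with effective-length offsets and 7 on either TPM scale. With beta replicate 2 and delta replicate 3 both left out, 14 were kept and 8 were lost (adjusted p from 0.0512 to 0.18). Lost in beta minus alpha were Slc39a1, Slc39a7 and Slc39a9, and in beta minus delta Slc39a6, Slc39a9 and Mtf1. In alpha minus delta Slc39a8 and Slc39a14 were lost. Slc30a10, at under 1 CPM in every library, was too shallow to test.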
